A study of Mus musculus with 10 samples.

Results

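The glucocorticoid response genes described here are 10 genes of the deposited table of 28871 genes: the corticosteroid receptors Nr3c1 and Nr3c2 and 8 genes that glucocorticoids induce in many tissues, Fkbp5, Tsc22d3, Sgk1, Zbtb16, Pdk4, Cdkn1a, Mt1 and Mt2. They were taken by name, from a list made with earlier results of these data known. All 10 were in the table and all 10 were among the 19093 genes that passed the filter on low counts. The samples were whole hippocampus of male wild-type C57BL/6J mice aged 2 months. Visudyne, an injectable form of the photosensitizer verteporfin, was given into the cisterna magna and activated by 689 nm red light through the intact skull, a procedure used to ablate meningeal lymphatic vessels. Controls received vehicle in place of Visudyne, and both groups went through the procedure again 2 weeks later and were sampled 2 weeks after the last one. Libraries from 5 Visudyne-treated and 5 control samples held 51165271 to 68895223 estimated counts each. Both groups therefore share the injection, the surgery and its repetition, and no untouched animals were among these samples. The labels do not say that each sample is a single animal, so p-values measure the spread between these samples, which may be technical.

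Glucocorticoids, corticosterone in mice, are released by the adrenal cortex in a daily rhythm and after stress, and they enter the brain. In the hippocampus they bind the high-affinity mineralocorticoid receptor (Nr3c2) and the lower-affinity glucocorticoid receptor (Nr3c1), both held by heat shock chaperones until the hormone arrives. The hormone-bound receptors bind glucocorticoid response elements in DNA and raise target genes, among them Fkbp5, which restrains the receptor in turn.

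A palindromic glucocorticoid response element was spelled out in the promoter windows of Sgk1. RefSeq windows (GRCm38.p6) of 250 bases before to 50 bases after a start site were at hand for 8 of the 10 genes, 16 windows in all. Its letters, AGAACA and TGTTCT with any 3 bases between them, read the same on both strands. They occurred in 3 of all 32851 windows of that length (0.00913%), and 1 of these belonged to Sgk1. The stretch below is shown because Sgk1 varied most of the 10 genes between samples. It lies on the plus strand at chr10:21993640-21993759, upstream of one of the alternative start sites of Sgk1 and in no annotated exon, and the capitals mark the element.
Sgk1: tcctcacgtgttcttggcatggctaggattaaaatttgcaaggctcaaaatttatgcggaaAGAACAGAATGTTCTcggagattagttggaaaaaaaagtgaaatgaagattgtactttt
A match of letters describes the sequence, and binding was not measured. None of the other 15 windows of these genes held the same letters, which says nothing of receptor binding elsewhere.

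The neighbouring genes Mt1 and Mt2 are shown for another element. Metallothioneins are small cysteine-rich proteins that bind zinc and copper, and their genes answer to metals through metal response elements as well as to glucocorticoids. The letters TGCACNC or TGCGCNC were searched on both strands. They occurred at 3 places in the Mt1 window and 4 in the Mt2 window, while 25.7% of all windows held at least 1 match and 1.97% held at least 3. The stretches upstream of the annotated transcripts, both on the plus strand at chr8:94178839-94179081 for Mt1 and chr8:94172368-94172617 for Mt2, hold 1 and 3 of these matches, in capitals. The Mt2 stretch overlaps an exon of the noncoding gene Gm45774 on the other strand.
Mt1: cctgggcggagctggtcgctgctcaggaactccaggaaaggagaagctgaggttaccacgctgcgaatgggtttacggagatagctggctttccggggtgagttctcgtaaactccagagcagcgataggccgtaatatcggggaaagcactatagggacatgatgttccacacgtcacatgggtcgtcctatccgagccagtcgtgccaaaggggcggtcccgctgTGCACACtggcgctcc
Mt2: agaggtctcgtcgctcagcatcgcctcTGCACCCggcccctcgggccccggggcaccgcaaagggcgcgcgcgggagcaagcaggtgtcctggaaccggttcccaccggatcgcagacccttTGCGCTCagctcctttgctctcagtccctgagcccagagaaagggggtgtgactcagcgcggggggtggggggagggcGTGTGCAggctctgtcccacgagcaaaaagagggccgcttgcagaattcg

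None of the 10 genes passed the test of a difference between Visudyne and vehicle samples. Levels are given as CPM, counts scaled to the size of the library, with the mean and SD of 5 samples in either group. A positive log2 fold change means a higher level with Visudyne. By edgeR's quasi-likelihood test 0 of 10 had a Benjamini-Hochberg adjusted p under 0.05, against 0.021% of all 19093 genes tested, and each of the 10 had an adjusted p of 0.9999. At an unadjusted p under 0.05 there were also 0 of 10, against 1.7% of all genes, and DESeq2 and limma voom each called 0 of 10. In each of the 10 genes the 2 groups overlapped, whereas 0.435% of all genes did not, 0.319% with all Visudyne samples above and 0.115% with all of them below. The log2 fold changes ranged from -0.11 (Nr3c2) to 0.22 (Cdkn1a), 5 positive and 5 negative, with a median of -0.000089 beside 0.0022 over all genes tested. In whole tissue, fewer cells of a type and less RNA per cell cannot be told apart.

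**Figure D1:**
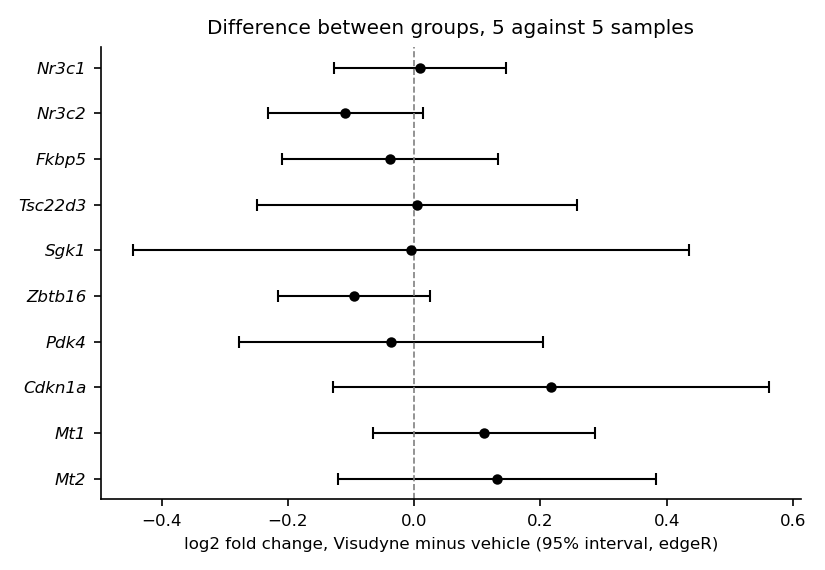
Log2 fold change of each of the 10 genes, Visudyne minus vehicle, on the x axis, with its 95% interval from edgeR (5 against 5 samples) as bars. Every interval includes 0, and the widest is that of Sgk1, from -0.45 to 0.44.

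The 2 receptors were among the steadiest of the 10 genes. Nr3c1, the glucocorticoid receptor, measured 112, 109, 106, 104 and 98.0 CPM in vehicle samples 1, 4, 7, 10 and 13. It measured 119, 104, 104, 111 and 93.7 CPM with Visudyne 3, 6, 9, 12 and 15. The highest and the lowest of the 10 values were both Visudyne samples, so the groups overlapped fully (105.7 ± 5.43 and 106.4 ± 9.33 CPM, log2 fold change 0.0093, SE 0.06, 95% interval -0.13 to 0.15). Nr3c2, the mineralocorticoid receptor, which is strongly expressed in hippocampal neurons, measured 254, 223, 264, 274 and 241 CPM with vehicle, and 236, 225, 236, 242 and 225 CPM with Visudyne, in the same order. The 3 highest samples were vehicle samples, and vehicle 4 was the lowest of all. The means were 251 ± 20.2 and 233 ± 7.65 CPM (log2 fold change -0.11, SE 0.06, 95% interval -0.23 to 0.01, unadjusted p = 0.076 in edgeR's fit). With 1 sample left out in turn, the unadjusted p of edgeR's fit was lowest without vehicle 4 (0.0137, adjusted 0.998). It was highest without vehicle 10 (0.194).

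The balance of the 2 receptors was compared as a ratio of counts within each library, which does not depend on scaling. Nr3c2 counts were 2.26, 2.04, 2.50, 2.65 and 2.46 times those of Nr3c1 in vehicle samples and 1.99, 2.15, 2.27, 2.18 and 2.40 times in Visudyne samples. The mean ratio was 2.38 ± 0.235 in vehicle and 2.20 ± 0.151 in Visudyne samples. On the log2 scale the difference was -0.11 (SE 0.08), which did not pass an exact two-sided permutation test (p = 0.198, adjusted over the 2 ratios tested 0.397, n = 5 each). With 1 sample left out in turn, the unadjusted exact p was under 0.05 only without vehicle 4, which had the lowest ratio of its group. The difference was then -0.17 with an exact p of 0.0476. The highest exact p was 0.373, without vehicle 10 or without Visudyne 3.

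Fkbp5 encodes a co-chaperone of the receptor complex and is a widely used readout of glucocorticoid receptor activity. It measured 43.9, 37.4, 45.8, 47.8 and 46.2 CPM with vehicle, and 40.8, 37.4, 45.9, 47.6 and 43.6 CPM with Visudyne. The lowest samples of both groups, vehicle 4 and Visudyne 6, were level with each other, as were the highest, vehicle 10 and Visudyne 12. The log2 fold change was -0.04 (SE 0.08, 95% interval -0.21 to 0.13).

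Tsc22d3 encodes GILZ, a leucine zipper protein that mediates anti-inflammatory effects of glucocorticoids. It measured 58.6, 58.2, 63.6, 71.8 and 72.7 CPM with vehicle, and 64.4, 49.2, 66.9, 82.6 and 63.0 CPM with Visudyne. Visudyne 6 was the lowest and Visudyne 12 the highest of all 10 samples, and the group means were nearly equal (65.0 ± 6.98 and 65.2 ± 11.9 CPM, log2 fold change 0.0048, SE 0.12).

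Sgk1 encodes a serine/threonine kinase that acts on ion channels and transporters. It measured 54.6, 62.3, 88.5, 86.2 and 104 CPM with vehicle, and 75.8, 48.9, 85.8, 106 and 78.1 CPM with Visudyne. The level of Sgk1 thus ranged from 48.9 to 106 CPM within the Visudyne group alone, while the group means were 79.2 ± 20.4 and 79.0 ± 20.6 CPM (log2 fold change -0.0050, SE 0.20, 95% interval -0.45 to 0.44).

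Zbtb16 encodes a zinc finger transcription factor, PLZF. It measured 56.6, 59.9, 65.8, 63.3 and 61.2 CPM with vehicle, and 55.9, 54.7, 57.8, 55.2 and 63.6 CPM with Visudyne. The 3 lowest of the 10 were Visudyne samples, but Visudyne 15 had the second highest value of all. The log2 fold change was -0.10 (SE 0.06, 95% interval -0.22 to 0.03).

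Pdk4 and Cdkn1a were the lowest of the 10 genes. Pdk4, a kinase that shuts the pyruvate dehydrogenase complex and so favours fat over glucose as fuel, measured 6.52, 4.87, 4.89, 4.29 and 5.43 CPM with vehicle, and 5.25, 5.16, 4.62, 5.59 and 4.76 CPM with Visudyne. Both the highest and the lowest Pdk4 values were vehicle samples (log2 fold change -0.04, SE 0.11). Cdkn1a, the cell cycle inhibitor p21 and also a target of p53, measured 1.84, 1.56, 1.27, 1.48 and 1.74 CPM with vehicle, and 1.97, 1.48, 2.30, 1.91 and 1.55 CPM with Visudyne. It rests on 64 to 136 counts per sample, and its log2 fold change of 0.22 (SE 0.16, 95% interval -0.13 to 0.56) was within the spread between samples.

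Of the metallothioneins, Mt1 measured 105, 89.3, 101, 101 and 103 CPM with vehicle, and 98.7, 103, 128, 116 and 93.6 CPM with Visudyne. Mt2 measured 44.6, 36.0, 46.1, 46.7 and 40.5 CPM with vehicle, and 44.2, 44.99, 58.6, 50.7 and 35.7 CPM with Visudyne. In both genes Visudyne 9 and Visudyne 12 were the highest samples and vehicle 4 and Visudyne 15 the lowest. The log2 fold changes were 0.11 (SE 0.08, 95% interval -0.07 to 0.29) for Mt1 and 0.13 (SE 0.12, 95% interval -0.12 to 0.38) for Mt2, and 0.042 and 0.037 without Visudyne 9. The count ratio of Mt2 to Mt1 was 0.428 ± 0.0318 in vehicle and 0.432 ± 0.0297 in Visudyne samples (log2 difference 0.01, SE 0.07, exact two-sided permutation p = 0.881, also 0.881 adjusted over the 2 ratios, n = 5 each). The longest coding transcript of Mt1 shared no stretch of 31 bases with any other gene's transcripts, so the split of reads between Mt1 and Mt2 does not rest on stretches of that length.

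**Figure D2:**
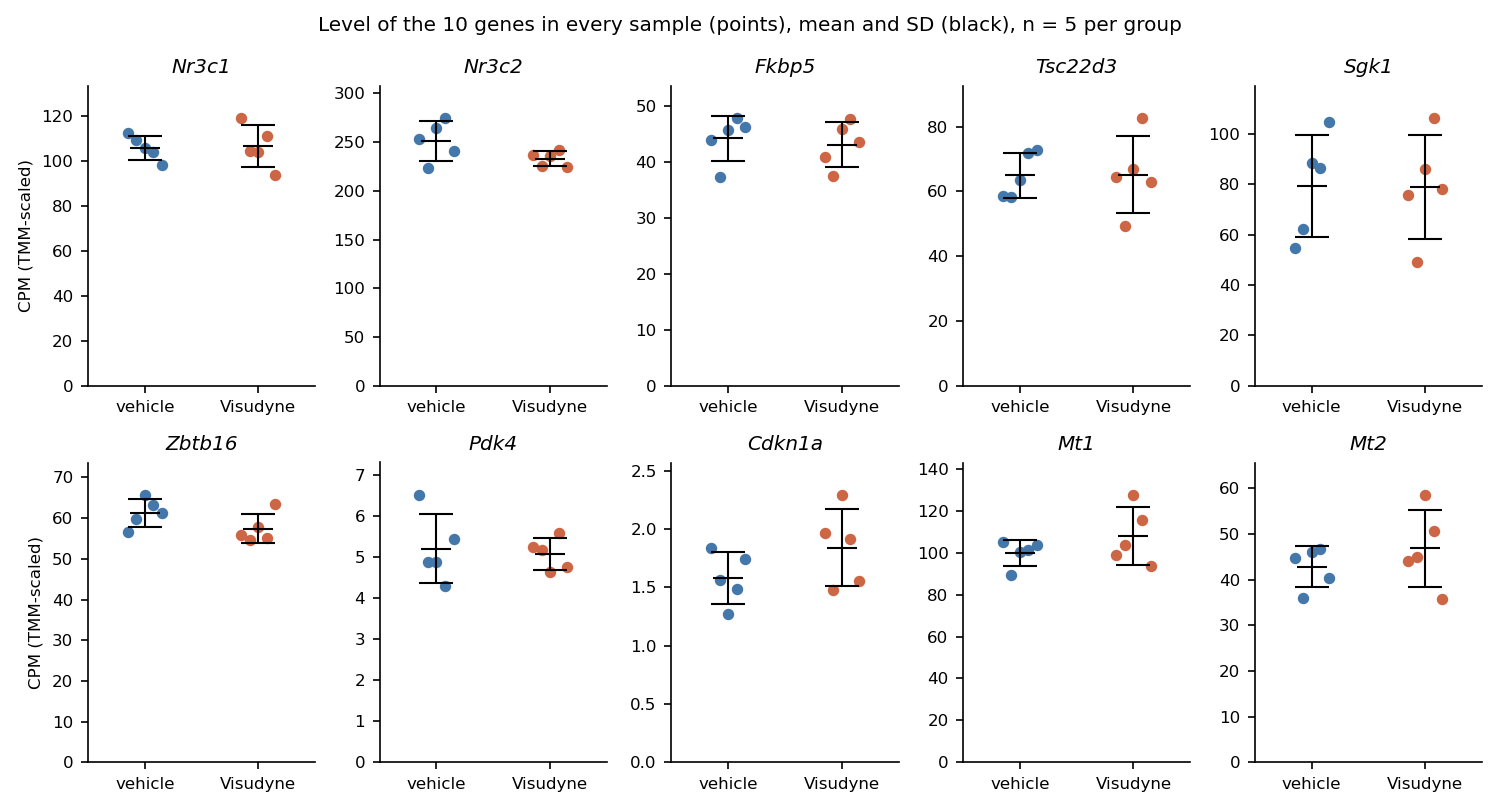
CPM of each gene (y axis, from 0) in the 5 vehicle and 5 Visudyne samples as points, with the mean and SD in black. In every panel the groups overlap, and Sgk1 spans the widest relative range, from 48.9 to 106 CPM.

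Levels of different genes were compared per length, as CPM per kilobase of the longest coding transcript, in vehicle samples. Mt1 (92.0 ± 5.67) and Mt2 (83.7 ± 8.78) stood highest, and their ranges over the 10 samples overlapped. Nr3c2 followed at 42.5 ± 3.41 CPM per kilobase, then Tsc22d3 at 32.9 ± 3.54 and Sgk1 at 25.6 ± 6.58, where each overlapped the next over the 10 samples. Nr3c1 had 16.4 ± 0.844 CPM per kilobase, overlapping Sgk1. Zbtb16 (11.998 ± 0.680) and Fkbp5 (11.5 ± 1.06) overlapped each other and lay below all values of Nr3c1. Pdk4 (1.49 ± 0.241) and Cdkn1a (0.759 ± 0.107) were lowest, without overlap with each other or with the genes above them. The order depends on the transcript taken as the length of a gene.

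The 10 genes differed widely in how much they varied between samples of the same group. The SD of log2 CPM within groups was 0.40 for Sgk1, higher than in 99.8% of the 1000 tested genes nearest to it in mean level. For Tsc22d3 (SD 0.22) the share was 97.6%, and for Mt2 (SD 0.22) it was 95.8%. Mt1 (SD 0.14, 86.4%) and Fkbp5 (SD 0.14, 81.0%) followed. The receptors Nr3c1 (SD 0.10, 56.3%) and Nr3c2 (SD 0.09, 39.8%), Pdk4 (SD 0.18, 57.6%), Zbtb16 (SD 0.09, 40.8%) and Cdkn1a (SD 0.23, 36.3%) varied about as much as other genes of their level.

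**Figure D3:**
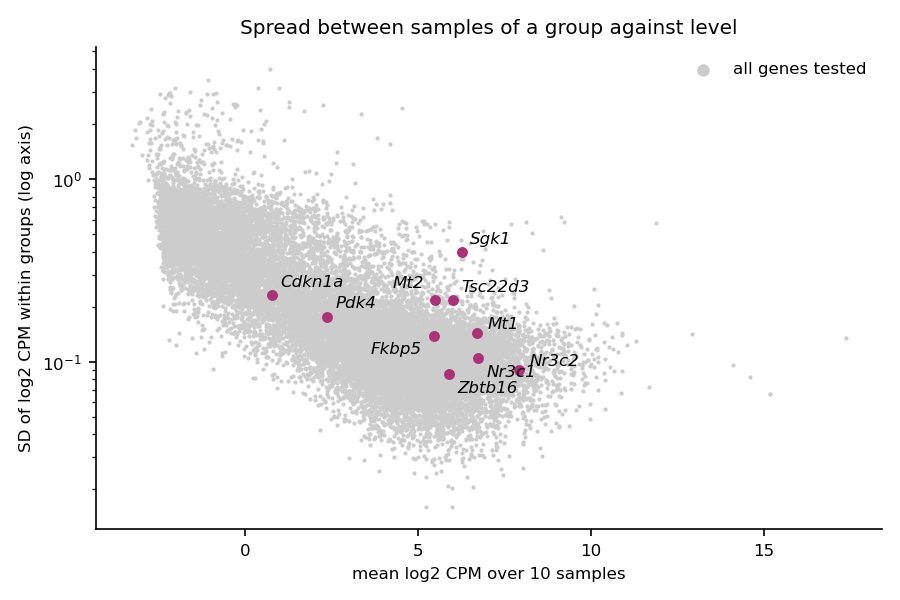
Mean log2 CPM over the 10 samples (x axis) and SD of log2 CPM within groups (y axis, log scale) of all 19093 genes tested in grey and the 10 genes in purple. Sgk1, Tsc22d3 and Mt2 lie in the upper part of the cloud at their level, while Zbtb16 and Nr3c2 lie inside its dense part.

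Sgk1 and Tsc22d3 rose and fell together from sample to sample. Their log2 CPM had a Pearson r of 0.92 over the 10 samples (permutation p = 7.0e-05, adjusted over the 45 pairs of the 10 genes 0.0031) and a Spearman rho of 0.89 (permutation p = 0.0013, adjusted 0.0488). Without Visudyne 6 and Visudyne 12, the samples farthest from the median of Tsc22d3, r was 0.88. The relation was present in each group, with r of 0.88 among the 5 vehicle and 0.98 among the 5 Visudyne samples. With 1 sample left out in turn r stayed between 0.87 and 0.95, and the adjusted permutation p stayed under 0.05 in all 10 cases.

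Fkbp5 moved with Tsc22d3 less firmly. Their r was 0.82 (permutation p = 0.0017, adjusted 0.0261, n = 10), the rho 0.87 (permutation p = 0.0022, adjusted 0.0488), and r was 0.66 without the farthest samples, vehicle 4 and Visudyne 6. The call held in 4 of the 10 cases with 1 sample left out. It was lost without vehicle 10, vehicle 13, Visudyne 6, Visudyne 9, Visudyne 12 or Visudyne 15, with the highest adjusted permutation p, 0.302, and an r of 0.72 without Visudyne 6. Fkbp5 and Sgk1 had an r of 0.79 that did not pass (permutation p = 0.0085, adjusted 0.0956, n = 10). The receptors had no relation past the threshold with any of the others; the closest was Nr3c2 with Fkbp5 (r of 0.69, permutation p = 0.0298, adjusted 0.268, n = 10).

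Mt1 and Mt2 also moved together, with r of 0.92 (permutation p = 0.00046, adjusted 0.0103, n = 10). Without vehicle 4 and Visudyne 9 r was 0.76, and the rho of 0.76 did not pass after adjustment (permutation p = 0.0151, adjusted 0.170). The adjusted permutation p of r was 0.0725 without Visudyne 9, 0.0686 without Visudyne 12 and 0.0565 without Visudyne 15, with r of 0.85, 0.91 and 0.92. Of the 45 pairs 3 passed in all, the ones named here, and 31 had a positive r. The same shares over pairs of other genes were not computed, so these counts only describe the 10 genes. All these values share libraries, so depth and tissue composition can enter both genes of a pair, and so can the order of the samples. Sgk1 and Tsc22d3 were lowest in vehicle 1 and 4 and highest in vehicle 13 among vehicle samples. With Visudyne both were lowest in sample 6 and highest in sample 12. The relation of the pairs to sample number was not tested.

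**Figure D4:**
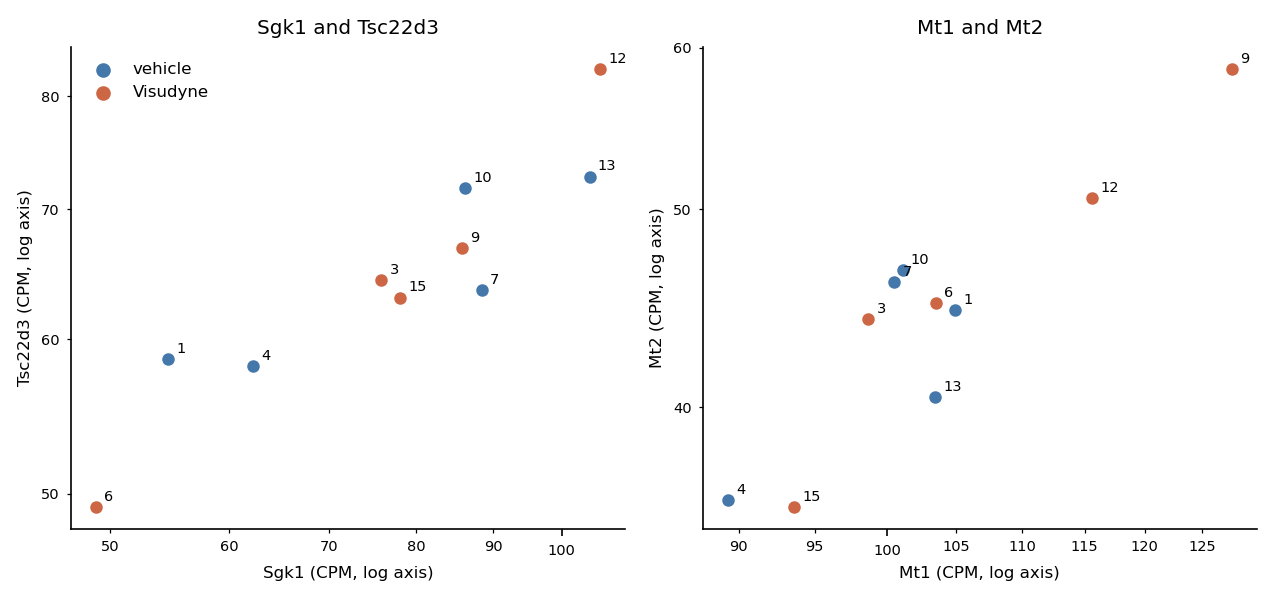
CPM of Tsc22d3 against Sgk1 (left) and of Mt2 against Mt1 (right), log axes, 1 point per sample labelled with its number and coloured by group. Visudyne 6 is lowest and Visudyne 12 highest in both Sgk1 and Tsc22d3, and vehicle and Visudyne samples are interspersed.

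The relation was read against all other genes. Among 12917 tested genes with a symbol and a mean log2 CPM no lower than 1, the gene most like Mt2 by Pearson r over the 10 samples was Mt1, followed by Rgs7 (r of 0.90) and Ganab (0.89). For Tsc22d3 the closest were Adipor2 (0.96), Trmt5 (0.92) and Sgk1 (0.92), which stood at rank 3. Fkbp5 was closest to B3galt5 (0.97), Bhlhe22 (0.97) and Rchy1 (0.96), with Tsc22d3 at rank 104 and Sgk1 at rank 173. Nr3c2 was closest to Fam19a1 (0.95), Yipf6 (0.94) and Cdc40 (0.93). These ranks are a description over 10 samples.

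Other genes known to be induced by glucocorticoids were tested between the same groups. Of 23 tested, 0 passed the edgeR test in either direction, 9 were positive and 14 negative, and the median log2 fold change was -0.02. The 3 of smallest unadjusted p were Plin4, Bcl6 and Klf9. Plin4, a lipid droplet coat protein, measured 2.88, 5.0041, 6.00, 7.16 and 2.09 CPM with vehicle, and 3.47, 3.51, 0.0338, 0.721 and 0.0349 CPM with Visudyne. Visudyne 9, 12 and 15 lay below every vehicle sample and the other 2 Visudyne samples among them (log2 fold change -1.55, SE 0.81, edgeR adjusted p = 0.9999). The transcriptional repressor Bcl6 (37.3 ± 2.44 and 34.5 ± 2.56 CPM) and the Krüppel-like factor Klf9 (172 ± 4.04 and 159 ± 16.2 CPM) each had a log2 fold change of -0.11.

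These 23 genes were then set beside Sgk1 across samples. This family of relations was chosen after the pairs above were seen. An r above 0 was found for 18 of 23, with a median of 0.47, and 1 passed after adjustment over the 23. Over the other 19092 genes tested, 52.6% had an r above 0 with Sgk1 and the median was 0.02, so the count is a description of these 23 and no test of the list. The gene that passed was Nfkbia, which encodes the NF-kappaB inhibitor and measured 10.2 to 15.7 CPM (r of 0.88, permutation p = 0.00086, adjusted 0.0198, rho of 0.84, permutation p = 0.0041, adjusted 0.0950, n = 10). An r at least as high was found for 8 of the 19092 genes, Nfkbia and Tsc22d3 included. Its r was 0.82 without the 2 farthest samples, and the adjusted permutation p rose to 0.0565 without vehicle 4 and 0.0708 without vehicle 13. The feedback inhibitor of EGF receptor signalling Errfi1 (r of 0.73), the small GTPase Arl4d (0.73), Hif3a (0.70), the lipid transporter Mfsd2a (0.69) and the mTOR inhibitor Ddit4 (0.68) had an adjusted permutation p of 0.105 to 0.116. Tgm2, a transglutaminase, had a negative value (r of -0.74, adjusted permutation p = 0.105, n = 10), and the clock gene Per1 had an r of 0.38 (adjusted permutation p = 0.395, n = 10). The value of Per1 joins opposite signs, with r of 0.79 in vehicle and -0.53 in Visudyne samples, and its rho was -0.0061.

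**Figure D5:**
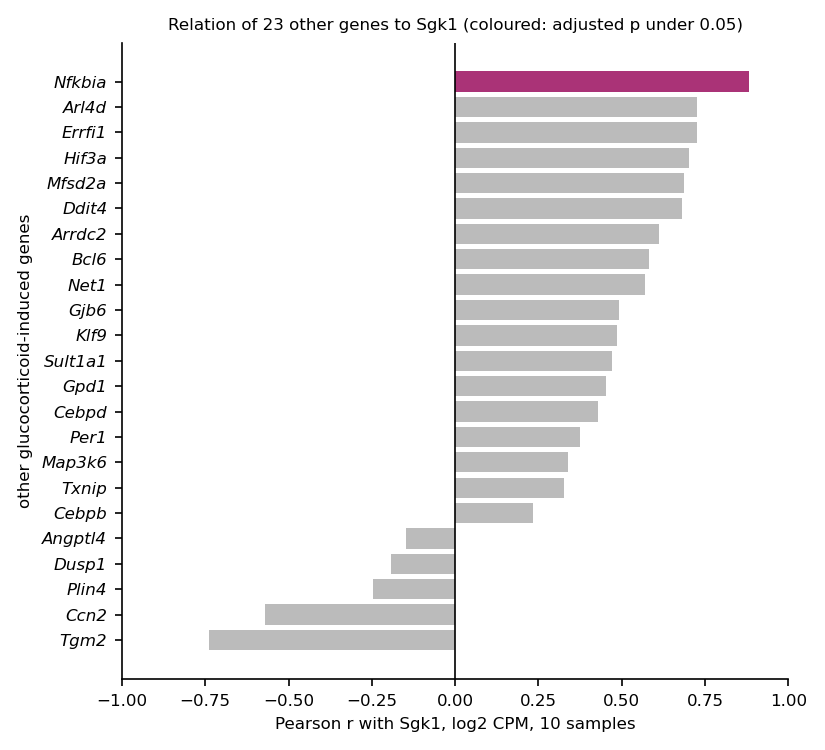
Pearson r of log2 CPM with Sgk1 over the 10 samples (x axis) for 23 other glucocorticoid-induced genes (y axis). Of the bars 18 point to positive values, and the coloured one, Nfkbia, passed after adjustment.

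Summed CPM of marker lists and the library totals were set beside Sgk1, Tsc22d3, Fkbp5, Mt1 and Mt2, and 0 of these 45 relations passed after adjustment. The closest was a negative one of Sgk1 with 8 brain endothelium markers, whose sum ran from 159 to 196 CPM (r of -0.74, permutation p = 0.0177, adjusted 0.418, rho of -0.78, adjusted permutation p = 0.349, n = 10; r of -0.69 without the 2 farthest samples). Tsc22d3 had an r of -0.70 and Fkbp5 one of -0.65 with the same sum. Sgk1 had an r of -0.03 with the 8 oligodendrocyte markers, 0.04 with the 8 astrocyte markers and 0.24 with the 9 immediate early genes. Each of these pooled values joins opposite signs in the 2 groups of 5 samples. The r of Sgk1 was -0.73 in vehicle and 0.62 in Visudyne samples with oligodendrocyte markers, and -0.80 and 0.59 with astrocyte markers. With immediate early genes it was 0.57 and -0.23. Mt2 had an r of 0.61 with the astrocyte markers and 0.59 with the microglia markers (adjusted permutation p = 0.630 for each, n = 10). The libraries of the highest totals, Visudyne 6 and vehicle 1, were the lowest in Sgk1, and its r with the total was -0.51 (adjusted permutation p = 0.765, n = 10) and 0.42 without these 2 libraries. The endothelium sum fell along the sample numbers, from 196 CPM in vehicle 1 to 159 CPM in vehicle 13. From Visudyne 3 to Visudyne 15 it went from 191 to 162 CPM. The part of endothelium, of depth or of sample number in the shared movement was not tested. The 10 fibroblast markers summed to 61.5 to 152 CPM with vehicle, and 156 to 183 CPM with Visudyne, and the called gene among them was the collagen gene Col1a1 (8.42 ± 2.30 and 19.0 ± 2.47 CPM, log2 fold change 1.18, edgeR adjusted p = 0.0485). Without vehicle 7, Visudyne 3 or Visudyne 6 no gene of the table passed, Col1a1 included (0 genes each). The fibroblast sum had an r of -0.52 with Sgk1, -0.36 with Tsc22d3, -0.39 with Fkbp5, 0.10 with Mt1 and 0.22 with Mt2. The adjusted permutation p of these ran from 0.765 to 0.924 (n = 10). The fibroblast sums of the 2 groups did not overlap, so each pooled r also takes in the difference between groups. For Sgk1 the r was -0.83 among vehicle and -0.72 among Visudyne samples. In the same order it was -0.70 and -0.60 for Tsc22d3, and -0.39 and -0.85 for Fkbp5. For Mt1 it was -0.31 and -0.36, negative in both groups, and for Mt2 0.13 and -0.13. Beyond these relations the part of fibroblasts in the values of the 10 genes was not tested. The choroid plexus markers summed to 219 CPM in vehicle 7 and 26.4 to 53.1 CPM in the other libraries. Hippocampal neuron markers summed to 2574 to 3232 CPM over the 10 samples, and 0 of the 9 immediate early genes passed, all 9 with a positive log2 fold change and a median of 0.14.

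The machinery around the receptors was tested next. Of 18 chaperones and cofactors 0 passed the edgeR test. The 3 of smallest unadjusted p were the acetyltransferase genes Crebbp (85.0 ± 5.28 and 88.1 ± 1.80 CPM, 0.05) and Ep300 (0.04), and the co-chaperone gene Bag1 (-0.07). Of 8 tested genes of corticosteroid supply and its central control, 0 passed. Hsd11b1, the enzyme that regenerates active corticosterone from its inert form inside cells, measured 23.6 ± 1.24 CPM with vehicle, and 22.2 ± 2.80 CPM with Visudyne (-0.09, SE 0.08). Hsd11b2, which inactivates corticosterone, was at 0.186 ± 0.0902 and 0.234 ± 0.140 CPM, and Crhr2, a receptor for corticotropin-releasing family peptides, at 0.759 ± 0.241 and 0.849 ± 0.128 CPM.

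Relatives of the induced genes were given the same test. Among 9 genes of metallothionein and zinc handling 0 passed, and the brain metallothionein Mt3 measured 79.6 ± 8.17 and 81.3 ± 4.10 CPM (0.03, SE 0.07). The heme oxygenase gene Hmox1 measured 2.53 ± 0.241 and 2.90 ± 0.486 CPM (0.19, SE 0.13), and Slc30a3 (-0.05), which loads zinc into synaptic vesicles, and the related transporter gene Slc30a10 (0.04) were next by p. Beside Cdkn1a, 0 of 13 listed genes of the p53 pathway and related inhibitors passed. Mdm2, the main negative regulator of p53 and its target, measured 33.4 ± 1.74 and 33.4 ± 1.96 CPM, and the 3 of smallest p were Zmat3 (0.07), Eda2r (0.31, SE 0.27) and Bbc3 (-0.11). Among 13 relatives of Pdk4 and Sgk1 and genes of fatty acid oxidation 0 passed. Pdk2, another pyruvate dehydrogenase kinase, came closest at 33.2 ± 1.99 and 35.7 ± 1.16 CPM (0.10, SE 0.05, unadjusted p = 0.064 in edgeR's fit), ahead of Sgk3 (-0.21, SE 0.13) and Pdk1 (-0.07, SE 0.06).

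By the GENCODE M21 annotation of GRCm38 the 10 genes are protein-coding. Sgk1 (ENSMUSG00000019970) spans 21882184 to 21999903 of chromosome 10, plus strand, and Tsc22d3 (ENSMUSG00000031431) 140539528 to 140600659 of chromosome X, minus strand, so the pair that moved together is not linked. Mt2 (ENSMUSG00000031762, 94172664 to 94173568) and Mt1 (ENSMUSG00000031765, 94179082 to 94180327) are neighbours on the plus strand of chromosome 8. Fkbp5 (ENSMUSG00000024222) spans 28399094 to 28517527 of chromosome 17, minus strand, and Nr3c2 (ENSMUSG00000031618) 76899442 to 77245012 of chromosome 8, plus strand. Nr3c1 (ENSMUSG00000024431) spans 39410545 to 39519421 of chromosome 18, minus strand, and Zbtb16 (ENSMUSG00000066687) 48654297 to 48836222 of chromosome 9, minus strand. Pdk4 (ENSMUSG00000019577) spans 5483351 to 5496309 of chromosome 6, minus strand, and Cdkn1a (ENSMUSG00000023067) 29090976 to 29100727 of chromosome 17, plus strand. Other annotated genes overlap Mt2, Nr3c2, Fkbp5 and Cdkn1a, on the other strand and, for Nr3c2 and Fkbp5, also on the same one. Whether counting used strand is not given, and reads of overlapping genes may not be told apart.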

How the data were processed

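Per the labels' protocols, libraries came from a TruSeq Stranded Total RNA kit. The deposited table holds estimated counts, whole numbers for 28871 Ensembl genes, made by the authors. The submitters' processing notes list Salmon, FastQC and build mm10. Versions and annotation release were not given in the sources used here. No column was left out. Symbols came from GENCODE M21 (28564 IDs matched). The deposited counts were tested with edgeR 4.0.16 (R 4.3.3): default filter on low counts (19093 genes kept), TMM scaling, quasi-likelihood F-test, no covariate, Benjamini-Hochberg adjustment over all genes tested, threshold 0.05. SEs and 95% intervals were derived from the F statistics. Log2 CPM used a prior count of 2. Ratios were tested exactly over 252 assignments of samples, two-sided. Correlations over all 10 samples used 100000 random two-sided permutations, and those with 1 sample left out used every permutation of the remaining samples. The edgeR test and the exact test of a difference between groups were tried on simulated data, and the permutation test of correlations was not. In a simulated table of this comparison edgeR called 12% of 50 genes changed 1.25-fold, 58% of 50 changed 1.5-fold and 78% of 50 changed 2-fold. The changed genes were drawn from all genes tested, whatever their level. In all 121 genes were called there and 4 in the data. The adjustment is stricter where fewer genes change, so these shares may be too high for this comparison. A lack of calls therefore does not exclude small differences.

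The 10 genes, the other lists and the motifs were chosen with earlier results of these data known; motifs, marker list relations and those of Sgk1 with other induced genes were added after values or windows were seen. Named genes are all 10, and from each other list of pathway genes those past the threshold or else the 3 of smallest p, plus the 3 most alike of 4 genes. Nfkbia, Errfi1, Arl4d, Hif3a, Mfsd2a, Ddit4, Tgm2, Per1, Mt3 and Mdm2 are named besides, with values known. The remaining marker lists fixed (microglia, hippocampal neurons) had 0 genes past the threshold. The alternatives were other scalings and filters, removal of mitochondrial genes, DESeq2 1.42.0, limma 3.58.1 voom, the sample number as covariate and leaving out each sample. Counts per gene of 64 to 16134 per sample limit Cdkn1a most.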

Additional observations from a re-analysis of the deposited data

Results flagged for a closer look

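Vehicle 4 stood apart from the other vehicle samples in Mt1, at 89.3 CPM where the next sample had 100.5 CPM. Its gap to that sample was 0.717 of the group's range, above the critical value of 0.71 for 5 samples. Of 24 groups of 5 values checked 1 was of this kind, and chance gives about 1 in 20.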

How the results depend on the processing

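Under all 19 alternatives (10 leaving out 1 sample, 9 others) 0 of the 10 genes passed; unadjusted p under 0.05 were those of Zbtb16 with quality weights (0.0142, limma), the sample number as covariate (0.0354), without vehicle 1 (0.0435) or without Visudyne 15 (0.0175), of Cdkn1a with quality weights (0.0473) and of Nr3c2 without vehicle 4 (0.0137). Over all genes 4 passed with edgeR, 18 with DESeq2, 13 with quality weights, 19 with the sample number as covariate, 2 with upper-quartile factors or without mitochondrial genes, and 0 to 5 with 1 sample left out. Of the 10 fold changes 5 kept their sign throughout: Nr3c2, Zbtb16, Cdkn1a, Mt1 and Mt2. Tsc22d3 turned to -0.0089 with limma voom, -0.030 with voom and sample quality weights and -0.047 with the sample number as covariate, and Pdk4 to 0.00066 with quality weights; the cause was not tested. With 1 sample left out log2 fold changes ran from -0.034 to 0.048 for Nr3c1, -0.093 to 0.0084 for Fkbp5, -0.090 to 0.091 for Tsc22d3, -0.13 to 0.13 for Sgk1 and -0.094 to 0.059 for Pdk4. For the 5 that kept their sign they ran from -0.15 to -0.07 (Nr3c2), -0.14 to -0.07 (Zbtb16), 0.12 to 0.29 (Cdkn1a, 0.35 with quality weights), 0.042 to 0.15 (Mt1) and 0.037 to 0.21 (Mt2). The log2 difference of the receptor ratio ran from -0.17 to -0.073, and that of the Mt2 to Mt1 ratio from -0.017 to 0.059, below 0 without vehicle 4, vehicle 13 or Visudyne 9. With 1 sample left out the number of correlated pairs ran from 1 (without Visudyne 9, 12 or 15) to 4 (without vehicle 1), and it was 3 after centring, with another prior count and with other scaling factors. No paired analysis was run, because the labels name no pairs and the groups share no sample numbers. The numbers of the 2 groups interleave, and blocks of neighbouring numbers were not fitted. With 5 samples a group, the 95% interval of Sgk1 does not exclude differences from -0.45 to 0.44 on the log2 scale.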
